A study of Mus musculus with 9 samples.

Results

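The cannabinoid receptor CB1 (Cnr1), its interacting protein (Cnrip1) and 7 enzymes that make or break down its ligands (Dagla, Daglb, Mgll, Faah, Napepld, Abhd6 and Abhd12) were read in RNA from hippocampal synaptoneurosomes. The 9 genes were chosen by symbol from the 22255 genes of the table, with earlier results of these data known, and each matched 1 row. All 9 samples came from Fmr1 knockout mice, which model fragile X syndrome, of strain C57Bl/6J, so both groups carry the deletion. Of these, 4 (lettered A, B, C and E) were given AM6545, a CB1 antagonist with limited entry into the brain, on a sub-chronic schedule, and 5 (lettered A to E) were given vehicle. Age, sex, dose and route are not given in the sources used here, no wild-type sample is analysed here, and the labels do not say whether each sample is 1 animal or a pool. The p-values therefore measure only the spread between these samples, which may be technical. The series title asks about the cognitive effect of blocking CB1 outside the brain. The comparison here shows whether the transcripts of the receptor and of its ligand enzymes differed in hippocampal synaptic fractions.

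CB1 is a G protein-coupled receptor found mostly on axon terminals, where it lowers transmitter release. Its main brain ligands are lipids made on demand in the postsynaptic cell, 2-arachidonoylglycerol and anandamide, which travel backward across the synapse. Diacylglycerol lipases (DAGL) make 2-arachidonoylglycerol from diacylglycerol, and monoacylglycerol lipase, with ABHD6 and ABHD12, hydrolyses it. NAPE-PLD releases anandamide from a membrane phospholipid, and fatty acid amide hydrolase (FAAH) breaks it down. In the hippocampus CB1 protein is densest on terminals of interneurons that contain cholecystokinin and is also present on glutamatergic terminals.

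Estimated counts per sample totalled 17628922 to 27263393, and the 9 genes together held 0.144% to 0.176% of them. All 9 passed the filter on low counts, which kept 14512 genes. The lowest count of a gene in a sample ran from 210 for Dagla to 8892 for Abhd12, so that counting error alone was 6.90% for Dagla and 1.06% for Abhd12 at these lowest counts. Cell type markers were read in 12 lists, and 68 of 68 marker genes had a count in every sample. At these totals a count is easily reached (Kcne2, of choroid plexus, was at 0.472 CPM in AM6545 C). The presence of the markers therefore does not test which cells the fraction came from. Summed over its 5 genes, the dentate granule list was at 257 to 288 CPM (the count scaled by library size and TMM factor) in AM6545 samples and 203 to 269.8 CPM in vehicle samples. The 7 oligodendrocyte genes summed to 13133 to 18851 CPM in AM6545 samples and 10774 to 22524 CPM in vehicle samples, and the 6 choroid plexus genes to 60.5 to 930.1 CPM and 47.6 to 4329 CPM. In such bulk RNA, fewer cells of a type and less RNA per cell cannot be told apart.

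None of the 9 genes differed between the groups beyond the spread of the samples. By edgeR's quasi-likelihood test 0 of 9 had an adjusted p under 0.05, as had 0% of all genes tested, with a smallest adjusted p among the 9 of 0.653. At an unadjusted p under 0.05 there were also 0 of the 9, against 7.21% of all genes tested, and DESeq2 also gave 0 of the 9 at that threshold. The CPM ranges of the groups overlapped for 9 of 9 genes, while 1.45% of all genes tested had ranges that did not overlap. The estimate was above 0 for 8 of the 9, against 48.2% of all genes tested, with a median log2 fold change of 0.10 for the 9 and -0.01 for all genes tested. That count was 7 or 8 of 9 in each of 17 alternative fits, and 7 with total counts as the scaling. The genes share samples and libraries, so their directions are not independent of each other. The panels of values by sample show the overlap for each gene.

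**Figure D1:**
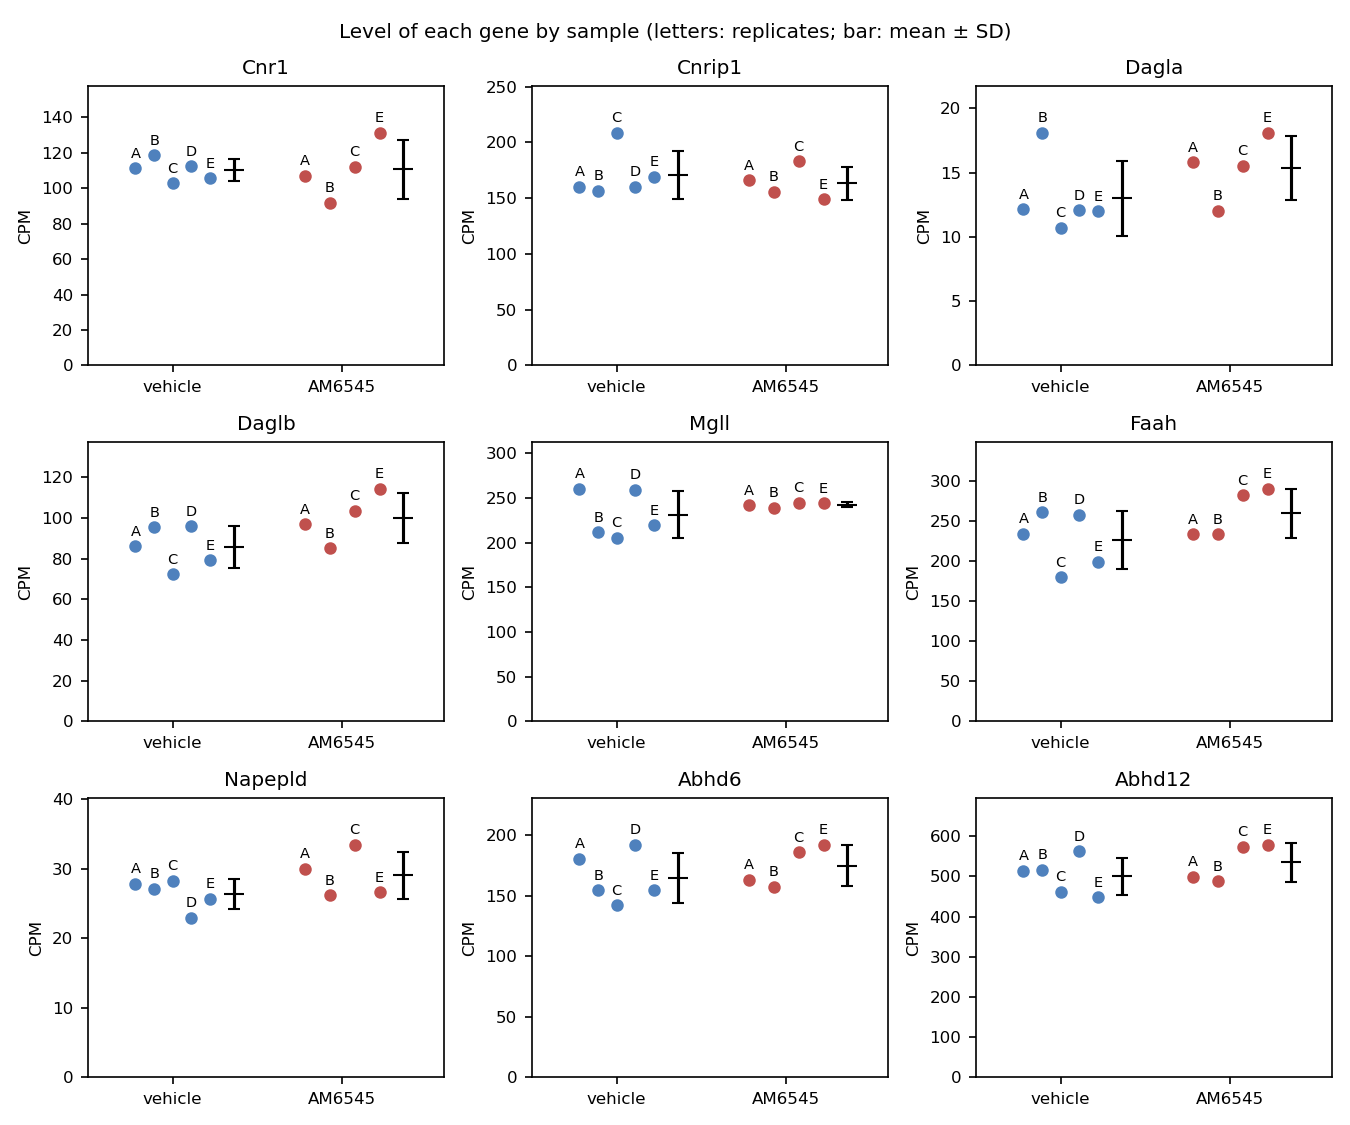
Level of each of the 9 genes in CPM (y axes, from 0) in the 5 vehicle samples (blue) and the 4 AM6545 samples (red), with letters for replicates and black bars for the mean ± SD of a group. The ranges of the groups overlap in every panel, and the Mgll points of the AM6545 group lie between 239 and 245 CPM.

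Levels of different genes were compared as CPM per kilobase of the median protein-coding transcript. Abhd12, a serine hydrolase of the endoplasmic reticulum that also acts on lysophosphatidylserine, was the highest, at 258 ± 23.8 CPM per kilobase (SD, n = 9), above 97.3% of genes tested. Cnrip1 followed at 134 ± 14.6, Mgll at 94.8 ± 7.93, Abhd6 at 86.3 ± 9.54 and Faah at 63.0 ± 9.44 CPM per kilobase (each SD, n = 9). Daglb and Cnr1 were lower, at 19.8 ± 2.76 and 19.1 ± 1.89 CPM per kilobase (each SD, n = 9). Napepld, at 7.18 ± 0.767, and Dagla, at 2.50 ± 0.507 CPM per kilobase (each SD, n = 9), were the lowest, with Dagla above 27.3% of genes tested. The 9 genes thus spanned 103-fold per length, with the hydrolases of 2-arachidonoylglycerol high and the synthetic enzymes Dagla and Napepld the lowest of the 9. Against all genes tested, Napepld was near the middle, above 45.4% of them. Daglb, which also makes 2-arachidonoylglycerol, lay between Napepld and those hydrolases, above 66.4% of genes tested.

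Some neighbours in this order did not separate. Daglb was above Cnr1 in 6 of 9 samples, with overlapping ranges, so their order is not settled. Mgll was above Abhd6 in 8 of 9 samples and Abhd6 above Faah in 9 of 9, also with overlapping ranges. The other neighbours kept their order in all 9 samples and their ranges did not overlap. Transcript choice moved the middle of the order: with the longest coding transcript Mgll fell to rank 5 of 9 at 59.2 CPM per kilobase, and with the shortest it rose to rank 2 at 229 CPM per kilobase. Abhd12 stayed at rank 1 and Daglb, Cnr1, Napepld and Dagla at ranks 6 to 9 with all 3 lengths.

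**Figure D2:**
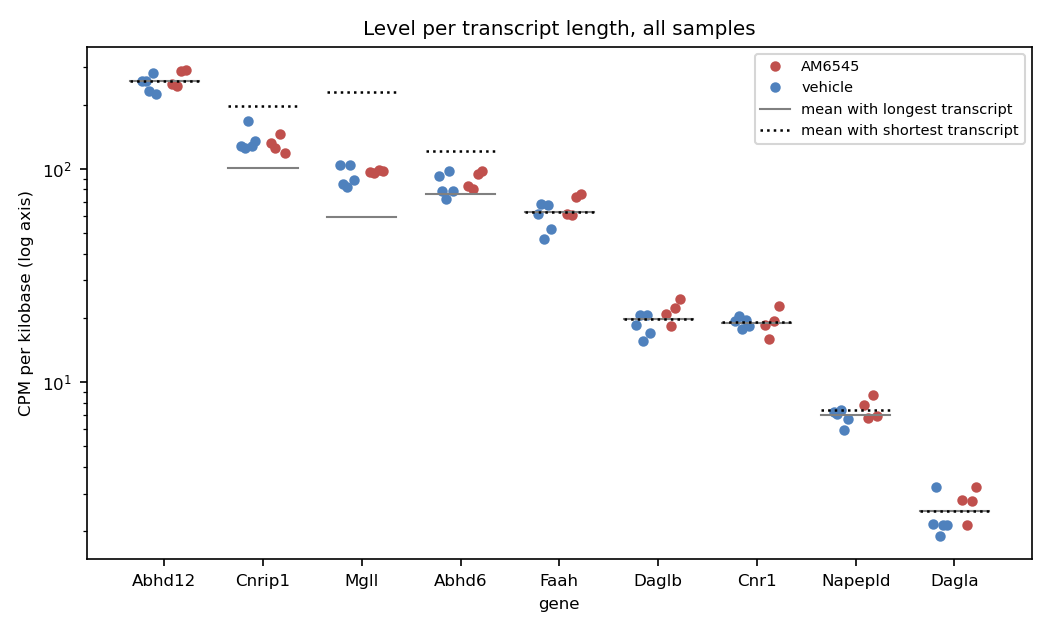
Level per transcript length (CPM per kilobase, log axis) of the 9 genes in order of their mean, with 1 point per sample (blue vehicle, red AM6545), and the mean level when the longest (grey line) or shortest (dotted line) coding transcript is used. Abhd12 lies highest at a mean of 258 and Dagla lowest at 2.50, and the choice of transcript matters most for Mgll, from 59.2 to 229.

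Cnr1 (ENSMUSG00000044288.7), the gene of the receptor that AM6545 blocks, had nearly the same mean in both groups. It was at 107, 91.7, 112 and 131 CPM in AM6545 A, B, C and E, and at 111, 119, 103, 112 and 106 CPM in vehicle A to E. AM6545 B was the lowest and AM6545 E the highest of all samples, and the vehicle samples lay between them. Its log2 fold change came to 0.01 ± 0.11 (SE; edgeR adjusted p = 0.989), and the 95% interval of -0.22 to 0.23 spans a level 0.859 to 1.17 times that of vehicle. The estimate was -0.09 without AM6545 E and 0.09 without AM6545 B. The SD was 16.4 CPM in AM6545 samples (n = 4) and 6.20 CPM in vehicle samples (n = 5); this difference in spread was not tested.

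Cnrip1 (ENSMUSG00000044629.6) encodes a protein that binds the tail of CB1. It was at 166, 156, 183 and 149 CPM in AM6545 A, B, C and E, and at 160.1, 157, 209, 160.3 and 169 CPM in vehicle A to E. Vehicle C stood above the 8 other samples, and the other vehicle samples lay inside the AM6545 range. A log2 fold change of -0.07 ± 0.11 was fitted (SE; edgeR adjusted p = 0.873, 95% interval -0.30 to 0.17), which became 0.02 without vehicle C. In GENCODE M21, 199 of the 4003 exonic bases of Cnrip1 are also exonic in Plek, a gene on the opposite strand at 12.8 to 18.2 CPM over all samples, and the strand setting of the quantification is not given in the sources used here.

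Dagla (ENSMUSG00000035735.11), the lipase that makes most 2-arachidonoylglycerol at adult synapses, had the largest estimate of the 9 genes and the widest error. Its levels were 15.8, 12.03, 15.5 and 18.1 CPM in AM6545 A, B, C and E, and 12.1, 18.1, 10.7, 12.1 and 12.002 CPM in vehicle A to E. In vehicle, 4 samples lay close together and vehicle B was as high as the highest AM6545 sample. For Dagla the log2 fold change was 0.24 ± 0.16 (SE; edgeR adjusted p = 0.687, 95% interval -0.10 to 0.58). Vehicle B moved its size most: without it the log2 fold change was 0.39 (edgeR unadjusted p = 0.0102, adjusted p = 0.325). In that fit 1797 of 14433 genes tested had an unadjusted p under 0.05. The log2 fold change of Dagla was 0.34 without AM6545 B, 0.18 without vehicle C and 0.15 without AM6545 E. Its adjusted p over the 17 alternatives ran from 0.325 to 0.920. Over the 9 samples the coefficient of variation of Dagla was 20.3%, against a median of 13.4% over 2122 genes of like abundance (mean CPM within 0.5 log2 units).

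Daglb (ENSMUSG00000039206.14), the second DAGL, best known from microglia and macrophages, had the smallest p of the 9 genes. It was at 97.0, 85.3, 104 and 115 CPM in AM6545 A, B, C and E, and at 86.2, 95.6, 72.4, 96.0 and 79.2 CPM in vehicle A to E. In 3 of 4 AM6545 samples the level was above every vehicle sample, and AM6545 B lay within the vehicle range. The fit gave a log2 fold change of 0.22 ± 0.11 (SE; edgeR unadjusted p = 0.0692, adjusted p = 0.653, 95% interval -0.02 to 0.46). In 4 of 17 alternatives its unadjusted p was under 0.05 (without AM6545 B, vehicle B or vehicle D, and with limma-voom sample weights), while its adjusted p ran from 0.372 to 0.920 over the 17. In those fits, in that order, 642 of 14649, 1797 of 14433, 866 of 14411 and 1823 of 14512 genes tested had an unadjusted p under 0.05. The level itself is uncertain, since 2309 of its 9567 exonic bases in GENCODE M21 are also exonic in Rac1 on the opposite strand, and without a stated strand setting reads from them cannot be told apart. Rac1, a small GTPase of the actin cytoskeleton, averaged 485 ± 35.9 CPM after AM6545 (n = 4, SD) and 529 ± 52.8 CPM after vehicle (n = 5, SD). Its estimate lay in the other direction, at -0.13 ± 0.11 (SE; edgeR adjusted p = 0.734). The part of Rac1 reads in the level of Daglb was not tested.

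Mgll (ENSMUSG00000033174.18) encodes monoacylglycerol lipase, the main hydrolase of 2-arachidonoylglycerol in brain. It was at 242, 239, 245 and 244 CPM in AM6545 A, B, C and E, and at 261, 212, 206, 259.5 and 219.8 CPM in vehicle A to E. The AM6545 samples lay close together inside the vehicle range, and vehicle A and D stood above them while B, C and E stood below. The groups differed by 0.07 ± 0.10 on the log2 scale (SE; edgeR adjusted p = 0.853, 95% interval -0.14 to 0.28). The SD was 2.57 CPM in AM6545 samples (n = 4) and 26.6 CPM in vehicle samples (n = 5), a difference in spread that was not tested.

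Abhd6 (ENSMUSG00000025277.15), a membrane hydrolase that acts on 2-arachidonoylglycerol in the postsynaptic cell, was at 163, 157, 186 and 192 CPM in AM6545 A, B, C and E. In vehicle A to E it was at 180.5, 155, 142, 192 and 154 CPM. Each group had both high and low samples, with AM6545 E and vehicle D alike. Its log2 fold change was 0.08 ± 0.11 (SE; edgeR adjusted p = 0.833, 95% interval -0.15 to 0.32). Abhd12 (ENSMUSG00000032046.16) was at 499.5, 488, 574 and 579 CPM in AM6545 A, B, C and E, and at 514, 517, 462, 562 and 447 CPM in vehicle A to E. AM6545 C and E exceeded the vehicle range and AM6545 A and B lay within it. Here the log2 fold change was 0.10 ± 0.11 (SE; edgeR adjusted p = 0.801, 95% interval -0.13 to 0.33).

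Of the anandamide enzymes, Napepld (ENSMUSG00000044968.17) was at 30.03, 26.2, 33.5 and 26.6 CPM in AM6545 A, B, C and E, and at 27.8, 27.2, 28.3, 23.0 and 25.7 CPM in vehicle A to E. AM6545 A and C exceeded the vehicle range, and B and E lay within it. A log2 fold change of 0.14 ± 0.11 was found (SE; edgeR adjusted p = 0.713, 95% interval -0.09 to 0.37), and 0.07 without AM6545 C. Faah (ENSMUSG00000034171.14) was at 234, 233, 282 and 290.4 CPM in AM6545 A, B, C and E, and at 234, 261, 179.9, 258 and 199 CPM in vehicle A to E. All 4 AM6545 samples were above the vehicle mean of 226 CPM, and 2 of them were above every vehicle sample. Faah had a log2 fold change of 0.20 ± 0.13 (SE; edgeR adjusted p = 0.674, 95% interval -0.07 to 0.47), and of 0.13 without vehicle C.

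**Figure D3:**
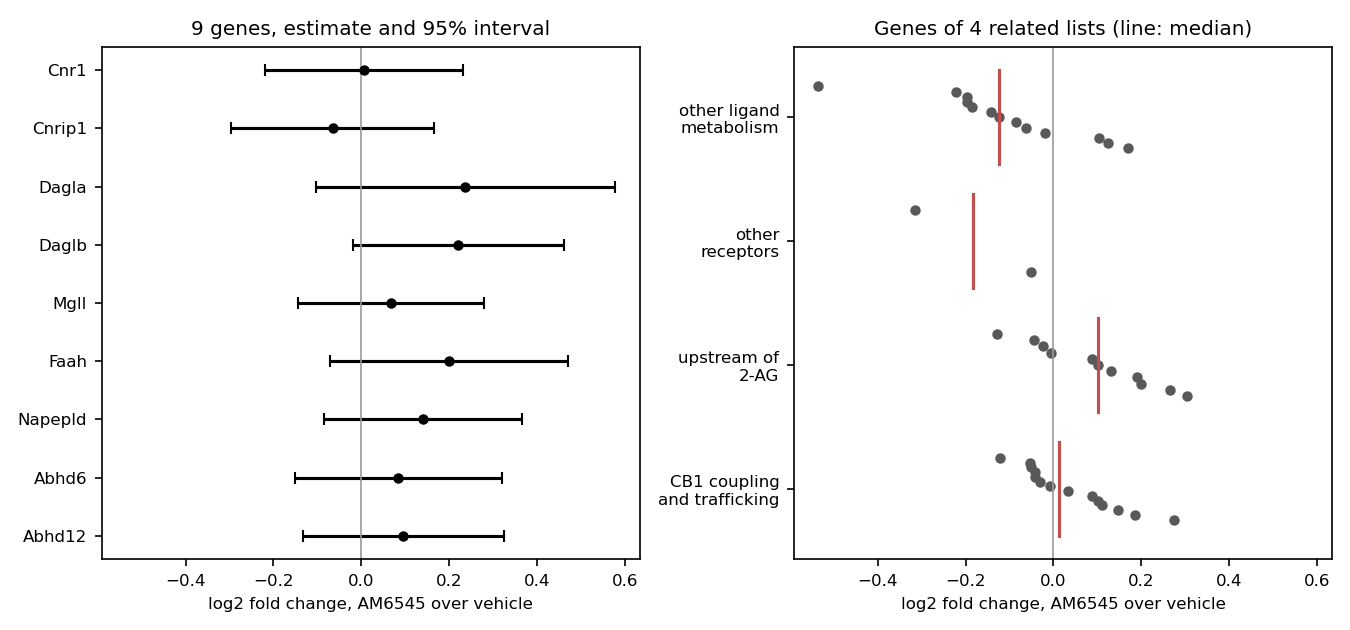
Left, log2 fold change of AM6545 over vehicle for the 9 genes, with 95% intervals from the edgeR quasi-likelihood fit. Right, log2 fold changes of the tested genes of 4 related lists (points) with their medians (red lines). All 9 intervals include 0, and Daglb comes nearest to excluding it, from -0.02 to 0.46.

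Some samples were high or low for many of the genes at once. Among AM6545 samples, B was the lowest for 8 of the 9 genes, and E was the highest for 6 and C for the other 3. Among vehicle samples, C was the lowest for 6 of the 9. Cnrip1 went against this pattern, with its highest level of all samples in vehicle C (0.32 log2 units above its mean) and its lowest in AM6545 E (-0.16). Napepld also departed from it in part. Its highest vehicle level was in vehicle C (0.04 log2 units above its mean), its lowest in vehicle D (-0.26), and AM6545 E was at -0.04. Faah deviated most in vehicle C, at -0.41 log2 units from its mean.

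**Figure D4:**
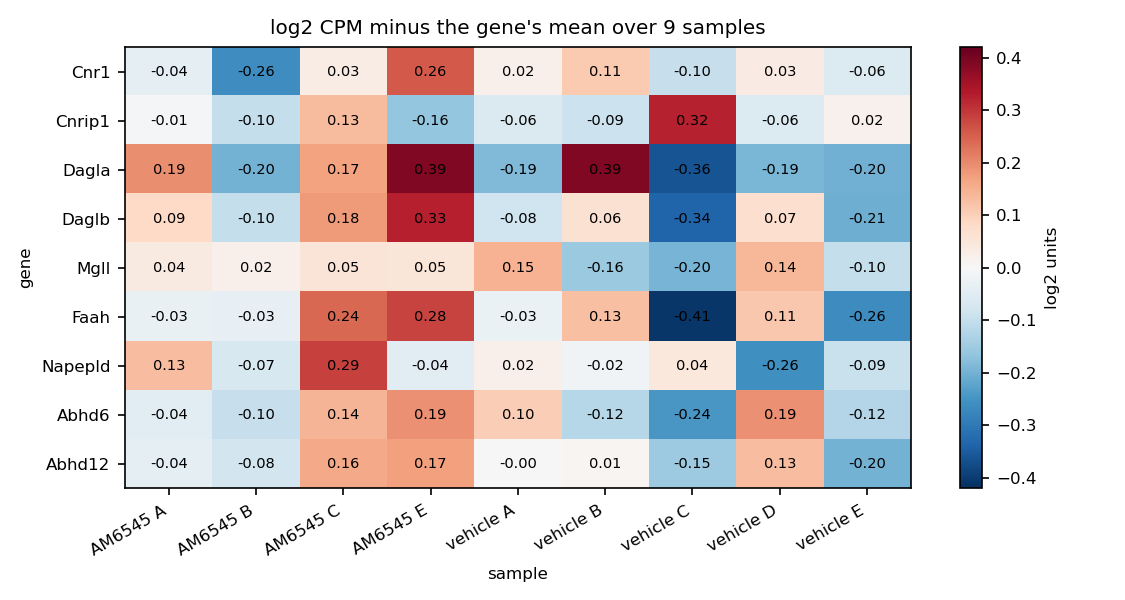
Deviation of each gene (rows) in each sample (columns) from its mean over the 9 samples, in log2 CPM units, red above and blue below. Vehicle C is low for most genes, down to -0.41 for Faah, while Cnrip1 is at 0.32 there.

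Summed markers of neuronal and non-neuronal cells also varied between these samples. Among the 12 lists, the summed levels of 1 had group ranges that did not overlap. In it, the 6 markers of CA1 or CA3 pyramidal cells summed to 514 to 551 CPM in AM6545 samples and 419 (vehicle C, the lowest of all samples) to 503 CPM in vehicle samples. Taken singly, 0 of its 6 genes had ranges that did not overlap, and Spink8 had the lower mean after AM6545, at 25.3 ± 3.26 CPM (n = 4, SD) against 27.9 ± 3.50 CPM (n = 5, SD). The 5 glutamatergic neuron markers summed to overlapping ranges of 1678 to 2098 CPM and 1593 to 1909 CPM. For non-neuronal cells, summed levels were lowest of the vehicle samples in vehicle C for 6 of 6 such lists (astrocyte, oligodendrocyte, oligodendrocyte precursor, microglia, endothelial and choroid plexus). They were highest of the AM6545 samples in AM6545 E for 5 of the 6, all but the endothelial list. AM6545 B was the lowest of its group for the astrocyte, oligodendrocyte, oligodendrocyte precursor and microglia lists but the highest for the endothelial list, at 73.4 CPM. For the choroid plexus list AM6545 C was the lowest of its group, at 60.5 CPM. The 7 astrocyte genes summed to 1678 to 2222 CPM in AM6545 samples and 1559 to 2440.1 CPM in vehicle samples, the 7 microglia genes to 760.0 to 1014 CPM and 574 to 898 CPM, and no gene of the 6 lists was at 0 in any sample. The 5 markers of cholecystokinin basket cells, where CB1 is densest, summed to 222 to 271 CPM in AM6545 samples and 235 to 320.3 CPM in vehicle samples. Most of this sum was Cck itself, at 157 to 205 CPM in AM6545 samples and 169 to 244 CPM in vehicle samples. Htr3a went the other way: its lowest AM6545 level (14.68 CPM, AM6545 A) was above its highest vehicle level (14.49 CPM, vehicle B). The ranges of Cck, Cxcl14, Slc17a8 and Sncg overlapped, so the sum does not stand for each marker. The part of these cell types in the levels of the 9 genes was not tested. Of the 9 genes, 6 are longer than the median tested gene of 2255 bases. With each sample's trend of level on transcript length removed, the log2 fold changes of Dagla, Daglb and Faah were 0.20, 0.17 and 0.15, and that of Cnr1 was -0.04.

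The plot of estimates with 1 sample left out shows how much each value rests on single samples. Dagla, Daglb, Mgll, Faah, Napepld, Abhd6 and Abhd12 stayed above 0 in each of the 9 fits, with ranges from 0.03 to 0.11 for Mgll up to 0.15 to 0.39 for Dagla. Cnr1 and Cnrip1 changed sign. Among larger moves, Abhd6 was 0.04 without vehicle C or without AM6545 E, and Abhd12 was 0.06 without AM6545 E.

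**Figure D5:**
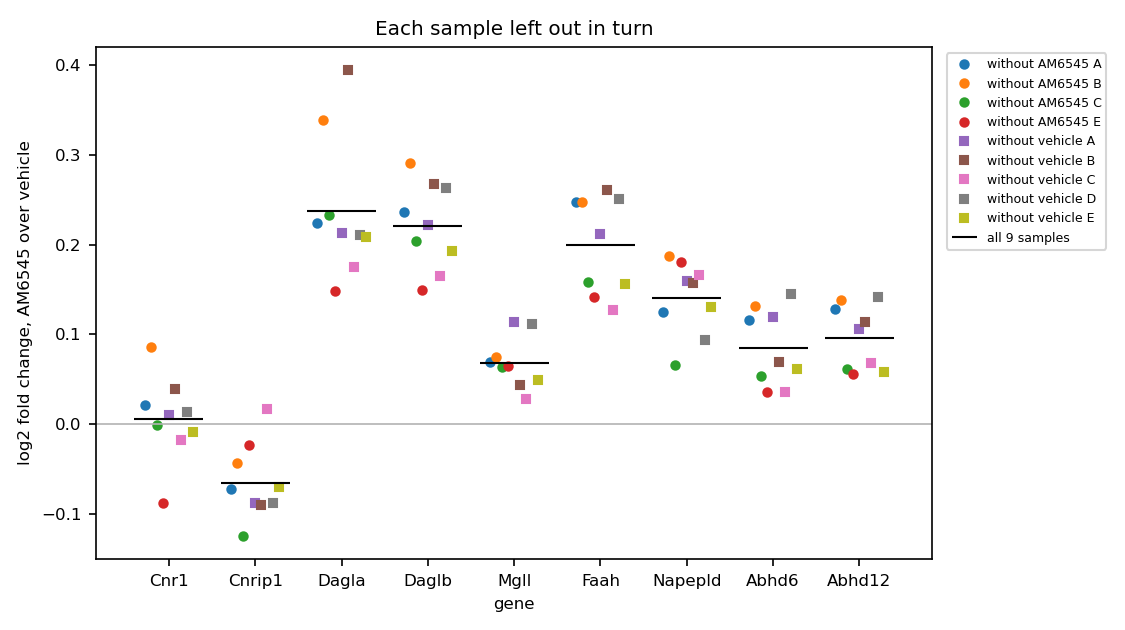
Log2 fold change of AM6545 over vehicle (y axis) for each gene with 1 sample left out (circles for AM6545 samples, squares for vehicle samples), and with all 9 samples (black lines). Dagla moves most, from 0.15 without AM6545 E to 0.39 without vehicle B, and Cnr1 lies on both sides of 0.

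Ratios of counts between pairs of the genes do not depend on how libraries are scaled. They are not corrected for transcript length, so they compare the groups and not the levels of different genes. The log2 ratio of Dagla to Mgll averaged -4.00 ± 0.23 after AM6545 (n = 4, SD) and -4.17 ± 0.36 after vehicle (n = 5, SD). It sets the RNA of a synthetic enzyme of 2-arachidonoylglycerol against the RNA of a hydrolase, and not their activities. The ratio of Dagla to Daglb was -2.71 ± 0.09 (n = 4, SD) against -2.74 ± 0.22 (n = 5, SD). That of Napepld to Faah, RNA of a synthetic enzyme against a hydrolase of anandamide, was -3.16 ± 0.21 (n = 4, SD) against -3.09 ± 0.31 (n = 5, SD). The group means of these ratios differed by less than the SD within a group. Abhd6 to Mgll was at -0.48 ± 0.13 (n = 4, SD) and -0.49 ± 0.05 (n = 5, SD), with 2 AM6545 samples above and 2 below the whole vehicle range. Abhd12 to Mgll was at 1.14 ± 0.12 (n = 4, SD) and 1.11 ± 0.12 (n = 5, SD), and Cnrip1 to Cnr1 at 0.57 ± 0.27 (n = 4, SD) and 0.63 ± 0.24 (n = 5, SD). AM6545 E, at 0.18, was below the vehicle range of Cnrip1 to Cnr1. With 1 sample left out, the group difference changed sign at least once for 5 of the 6 ratios, all but Dagla to Mgll, which was 0.33 without vehicle B. These ratios are described and not tested.

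Of 48 other genes of the pathway in 4 lists, 40 were tested, 17 with an estimate above 0 and 23 below, and 0 passed edgeR's quasi-likelihood test after adjustment, with 2 of 40 at an unadjusted p under 0.05, where 7.21% of all genes tested were. That count is no larger than the share over all genes, and nothing is read from it. Among 16 other genes of ligand metabolism, 13 were tested, 3 above 0 and 10 below, with a median log2 fold change of -0.13. The most abundant, Gde1, a phosphodiesterase of another route to anandamide, averaged 375 ± 16.4 CPM after AM6545 (n = 4, SD) and 398 ± 45.8 CPM after vehicle (n = 5, SD), with a log2 fold change of -0.09 ± 0.10 (SE). Of 7 other receptors for these lipids, Ppara and Pparg were tested; the most abundant, Ppara, a nuclear receptor, averaged 2.75 ± 0.0380 CPM after AM6545 (n = 4, SD) and 3.44 ± 0.799 CPM after vehicle (n = 5, SD). Its estimate was -0.32 ± 0.19 (log2, SE; edgeR adjusted p = 0.662). The other 5 did not pass the filter: the highest count in any sample was 6 for Cnr2, the gene of the second cannabinoid receptor, 6 for Gpr55, 2 for Gpr18, 1 for Gpr119 and 1 for Trpv1.

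The list of genes that drive 2-arachidonoylglycerol production, from receptors coupled to Gq down to phospholipase C beta, had 11 tested genes, 7 above 0 and 4 below, with a median of 0.10. Plcb1, the most abundant of the list, averaged 237 ± 37.7 CPM after AM6545 (n = 4, SD) and 207 ± 21.3 CPM after vehicle (n = 5, SD), and its log2 fold change was 0.20 ± 0.12 (SE). The list of CB1 coupling and trafficking genes had 14 tested, 7 above 0 and 7 below, with a median of 0.01. Its gene with an unadjusted p under 0.05, Gprasp1, whose product sorts receptors such as CB1 to lysosomes, averaged 421 ± 29.7 CPM after AM6545 (n = 4, SD) and 348 ± 43.2 CPM after vehicle (n = 5, SD). Its estimate of 0.27 ± 0.11 (log2, SE; edgeR unadjusted p = 0.0255, adjusted p = 0.653) did not pass the test. Wasf1, an actin regulator and the most abundant gene of that list, had a log2 fold change of 0.11 ± 0.13 (SE).

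For Cnr1, Dagla, Mgll and Faah, the genes with the most similar levels over the 9 samples were taken by Pearson's r of log2 CPM among 9299 candidates. Picking the highest r among so many genes over 9 samples gives high values by construction, so they are a description. Cnr1 was most like Tgoln1 (r = 0.98), Tm9sf3 (r = 0.98) and Slc30a5 (r = 0.97). Dagla was most like Kcnh1 (r = 0.99), Neurl1a (r = 0.98) and Sirpa (r = 0.98). Mgll was most like P4ha2 (r = 0.93), Macf1 (r = 0.92) and Sirt5 (r = 0.92), with lower values than for the other 3 genes. Faah was most like Tmem161a (r = 0.99), Sec61a1 (r = 0.99) and Ache (r = 0.98). Ache, acetylcholinesterase, ranged from 87.6 to 105 CPM in AM6545 samples and from 63.3 to 93.9 CPM in vehicle samples.

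Faah and Daglb, with the same highest sample (AM6545 E) and the same lowest (vehicle C), which Abhd6 also had, were chosen after their values were seen to show what lies before their starts. RefSeq promoter windows (GRCm38.p6) were found for 7 of the 9 genes. The 250 bases before the start are given 5′ to 3′ on the gene's strand, with GC boxes (GGGCGG on either strand) in capitals.
Faah, chr4:116017925-116018174, minus strand: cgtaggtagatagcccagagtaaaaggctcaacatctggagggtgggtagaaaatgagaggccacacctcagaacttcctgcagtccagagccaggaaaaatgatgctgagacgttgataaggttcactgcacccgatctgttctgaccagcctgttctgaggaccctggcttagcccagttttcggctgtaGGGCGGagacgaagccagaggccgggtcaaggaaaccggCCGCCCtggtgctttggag
Daglb, chr5:143464243-143464492, plus strand: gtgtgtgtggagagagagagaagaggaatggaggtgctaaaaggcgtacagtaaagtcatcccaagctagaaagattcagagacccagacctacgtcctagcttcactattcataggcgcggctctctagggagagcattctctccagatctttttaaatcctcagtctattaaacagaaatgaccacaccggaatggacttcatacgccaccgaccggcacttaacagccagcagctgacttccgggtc
The Faah window held 2 GC boxes and the Daglb window 0, where 32.7% of all 32851 windows held at least 1. Neither held the CCAAT box (letters CCAAT, in 33.8% of windows) on either strand, and neither held the TATA box (letters TATAAA, in 12.4% of windows). Each had 9 CpG sites, against a median of 6 over all windows. These matches describe the letters of the windows only.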

How the data were processed

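RNA from hippocampal synaptoneurosomes of 9 Fmr1 knockout samples was sequenced (low-input SMARTer libraries, NovaSeq instrument) according to the labels' protocols. The table deposited by the authors holds estimated counts per Ensembl gene, not scaled between samples. The submitters' processing notes name Salmon 1.3, DESeq2 1.30 and the builds GRCm39 and mm10, with no role or order. The annotation and strand setting are not given in the sources used here.

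Counts were rounded to whole numbers. Symbols matched 22155 of 22255 identifiers in GENCODE M21 without version numbers. M21 also gave transcript lengths, overlaps and similarity (blastn 2.17.0, at least 95% identity over 100 bases). Apart from RefSeq promoters, no coordinates are given, since 22144 identifiers carry another version than in M21. edgeR 4.0.16 (R 4.3.3) was used with filterByExpr, TMM and the quasi-likelihood F-test, AM6545 (n = 4) against vehicle (n = 5), with Benjamini-Hochberg adjustment over all 14512 genes tested and a threshold of 0.05. Standard errors were derived from the fold change and the F statistic (log2 fold change over the root of F). Log2 CPM used a prior count of 2.

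The test was tested on simulated data with 250 changed genes at each size of change. It recovered 6% of genes changed 1.25-fold, 43.6% at 1.5-fold, 82% at 2-fold and 95.2% at 4-fold. Alternatives covered size factors, filters, DESeq2 1.42.0, limma-voom (limma 3.58.1), the replicate letter as a block, removal of the trend with transcript length (lowess span 0.3), transcript choice and each sample left out.

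The 9 genes and the lists were chosen with earlier results of these data known. Named were the 9 genes, pathway genes with an unadjusted p under 0.05, the most abundant gene of each pathway list, and, for Cnr1, Dagla, Mgll and Faah, the 3 genes of highest Pearson's r (mean of at least 10 CPM, with no Gm-number or Rik symbol). Of the pathway genes under that rule, 1 is not reported here.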

Additional observations from a re-analysis of the deposited data

Results flagged for a closer look

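In the 9 gene levels and 6 ratios, 30 groups of values were checked for a sample far from the others (Dixon's ratio of gap to range, 95% critical value), where chance gives about 1.5. In 3 of them, all in the vehicle group, a sample stood apart. The Cnrip1 level was 209 CPM in vehicle C and 157 to 169 CPM in the rest of that group (ratio 0.764). Dagla was at 18.1 CPM in vehicle B, with the others between 10.7 and 12.1 CPM (ratio 0.808). The log2 ratio of Dagla to Mgll, which shares the Dagla values, was -3.55 in vehicle B, with the others between -4.43 and -4.20 (ratio 0.738).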

How the results depend on the processing

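Over 17 alternative fits the 9 genes gave 153 values, of which 145 kept their direction and their side of the threshold and 8 changed direction; none passed the adjusted threshold (adjusted p 0.325 to 0.999). Cnr1 went from 0.01 to -0.00067 with total counts, -0.032 with limma-voom sample weights, -0.036 with the length trend removed, -0.0008 without AM6545 C, -0.088 without AM6545 E, -0.018 without vehicle C and -0.0093 without vehicle E; over the left-out samples it ran from -0.088 to 0.086. Cnrip1 went to 0.016 without vehicle C and ran from -0.12 to 0.016. The causes were not tested. The count of genes past the threshold ran from 0 to 1 over the left-out samples (1 without AM6545 A) and was 0 in every other fit, with 496 to 1848 genes at an unadjusted p under 0.05. Ranks by level per length changed for 3 genes with the longest coding transcript and for 2 with the shortest. Of 54 ratio differences with a sample left out, 12 had the other sign, in 5 of 6 ratios: Napepld to Faah went from -0.07 to 0.03 without AM6545 E or vehicle C, and Cnrip1 to Cnr1 from -0.06 to 0.07 and 0.04 without the same samples. Dagla to Mgll went from 0.18 to 0.33 without vehicle B. The labels do not say that replicate letters pair samples. Deviations of same-letter samples correlated at -0.02, 0.04, 0.34 and -0.02 for A, B, C and E. AM6545 C correlated most with vehicle C, while AM6545 A, B and E correlated most with a vehicle sample of another letter. So few correlations cannot decide whether a letter marks shared handling. The fit with the replicate letter as a block left out vehicle D, whose letter has no AM6545 sample. In it 0 genes passed, and Cnr1 was at 0.0042 and Daglb at 0.26. Without vehicle D and without a block, Daglb was also at 0.26 and Cnr1 at 0.014. Counting error limits Dagla most, at 6.90% for its lowest count.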
